A study of Homo sapiens with 13 samples.

Results

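Cells of 3 xenograft tumours that express RKIP were divided by whether a transcript of the introduced gene, rat Pebp1, was counted in them. Of 796 cells of these RKIP tumours with at least 1000 detected genes, 297 had 1 or more rat Pebp1 counts (positive cells) and 499 had none (negative cells), out of 1569 cells in the single-cell table. The 772 cells of 3 vector-control tumours (CTRL) were set beside them. The cells that were grown as tumours were BM1, which were derived from the breast cancer line MDA-MB-231 for their spread to bone. The RKIP cells carry RKIP-S153E, in which a serine is replaced by glutamate, and the CTRL cells carry the vector. Mice without mature T cells (athymic nude) received 1000000 cells of either kind into a mammary fat pad, and the tumours were taken 3 weeks later. Each of 3 replicate experiments had 1 RKIP and 1 CTRL tumour, which were dissociated, depleted of mouse and dead cells and captured on the Fluidigm C1 HT system. The labels do not say whether the RKIP cells are 1 clone or a pool. The cells of each class were chosen by their rat Pebp1 counts, so the levels, shares and depths by class that follow directly from them are descriptions without a test.

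RKIP, the product of PEBP1, keeps MEK from being phosphorylated and so dampens the kinase cascade that ends in ERK. The serine that is replaced in the construct is the one that protein kinase C phosphorylates, which lifts this inhibition and lets RKIP bind the receptor kinase GRK2 instead. In breast cancer cells RKIP is known as a suppressor of metastasis that also lowers the transcription factor BACH1 and the chromatin protein HMGA2 by way of the let-7 microRNAs. Genes that ERK activates are a usual readout of RKIP function. How the change of this serine alters that function was not tested here.

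The tumours are numbered 1, 2 and 3 by the endings of the cell names, and the numbers are arbitrary. In the RKIP tumours, the summed cells held 3732040 counts in positive and 30836883 in negative cells of tumour 1, 10125362 in positive and 9960389 in negative cells of tumour 2, and 20040788 in positive and 7799762 in negative cells of tumour 3. Each tumour came from 1 mouse, so n = 3 for every comparison of classes.

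The deposited whole numbers had been rescaled, by gene and by experiment, and are not numbers of reads. In tumour 1 rat Pebp1 took the values 0, 2, 4, 5 and 7 and then 29 and above, and DUSP6 took 0, 2, 4, 5, 7 and 8 in RKIP and in CTRL cells. Of 3904 genes counted in at least 150 cells with the ending of tumour 1, 84.2% skipped a number up to 7 that lies just below one held by 5 or more cells, against 2.28% in tumour 2 and 10.0% in tumour 3. RKIP and CTRL cells of 1 ending shared these gaps: of the numbers skipped in RKIP cells of tumour 1, 99.9% were also skipped in CTRL cells of tumour 1, against 0.242% in those of tumour 2 and 0.902% in those of tumour 3. In tumours 2 and 3, 78.1% of 155 and 95.8% of 695 compared numbers were also skipped in CTRL cells of the same ending. The values of positive, negative and CTRL cells thus shared nearly all compared gaps in tumour 1 and most in tumours 2 and 3. In 122, 61 and 49 of the genes looked at in tumours 1, 2 and 3 no cell was at 0, and the form of the rescaling is not known. Levels, totals, detected genes and cut-offs of 1, 2, 3 or 10 counts do not mean the same in different tumours, and CPM here is per 1000000 of these rescaled counts. Levels of different genes in the same tumour may not share a scale either.

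All 6 listed markers of the BM1 line were measured, with a summed level of 8930 to 12999 counts per 1000000 counts (CPM) in positive and 10533 to 14016 CPM in negative cells. Of 10 leukocyte markers, the table holds only LAPTM5 and CSF1R (99.9 to 112 CPM together in positive and 104 to 119 CPM in negative cells), and the defining marker PTPRC is not among its genes, each of which was counted in at least 20 cells. Of 6 fibroblast markers 2 are in the table (1.61 to 4.14 CPM in positive and 2.69 to 6.87 CPM in negative cells), of 8 muscle markers 1 (0 to 0.593 CPM in positive and 0.513 to 1.04 CPM in negative cells) and of 5 erythrocyte markers 0. Of 6 endothelial markers, PECAM1, KDR and TIE1 are in the table, and together they summed to 8.30 to 17.1 CPM in positive and 18.1 to 36.8 CPM in negative cells. The edgeR log2 fold change of positive over negative cells was 0.41 for KDR and -2.38 for TIE1. Of the 3 genes 1 was lower in positive cells in all 3 tumours, where 14.2% of all genes were. The part of these low sums in the results was not tested.

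The share of cells with a transgene count differed widely between the 3 RKIP tumours. In tumour 1, 23 of 266 cells were positive (8.65%, exact 95% binomial interval 5.56% to 12.7%). In tumour 2, 122 of 274 were (44.5%, 38.5% to 50.6%), and in tumour 3, 152 of 256 (59.4%, 53.1% to 65.4%). The interval of tumour 1 lies below those of the other tumours, and all such intervals cover counting error only. In CTRL tumours 1, 2 and 3, 0 of 247, 10 of 267 and 8 of 258 cells had a rat Pebp1 count, and by the limit of 3 counts the 0 of CTRL tumour 1 allows a share of up to 1.21% (exact 95% upper bound 1.48%). None of these CTRL cells had more than 2 counts, and 16 of the 18 had 1.

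Most positive cells held few transgene counts and a few held very many. In tumour 1 no positive cell had exactly 1 count, 14 had 2, 4 had 3 to 9 and 5 had 10 or more. In tumour 2, 36 had 1, 28 had 2, 17 had 3 to 9 and 41 had 10 or more. In tumour 3, 47 had 1, 6 had 2, 40 had 3 to 9 and 59 had 10 or more. The median positive cell had 2, 2 and 6 counts. In tumour 2, 64 of the positive cells held no more than the 2 counts of the highest CTRL cell of that tumour, and in tumour 3, 47 held no more than the 1 count of the highest CTRL cell there. In tumour 1, where no CTRL cell had a count, 2 is the lowest value above 0 on the scale.

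At the other end, the highest cells had 132 counts in tumour 1, 1463 and 1188 in tumour 2, and 764 in tumour 3. The 2 highest cells of each tumour held 55.3%, 64.9% and 28.4% of its transgene counts, where the 2 highest cells for human PEBP1 held 7.96%, 5.07% and 5.71% of the PEBP1 counts. Per cell, the transgene ran from 3.58 CPM over a median of 21.9 CPM to 1489 CPM in the positive cells of tumour 1, from 5.84 over 46.4 to 14743 CPM in tumour 2, and from 3.04 over 66.6 to 3932 CPM in tumour 3. Over all cells of a tumour the transgene summed to 11.5, 203.4 and 129.0 CPM, and without the 2 highest cells to 5.15, 72.4 and 94.1 CPM. Tumour 2 was above tumour 3 with those cells and below it without them, on scales that may differ between the tumours.

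**Figure D1:**
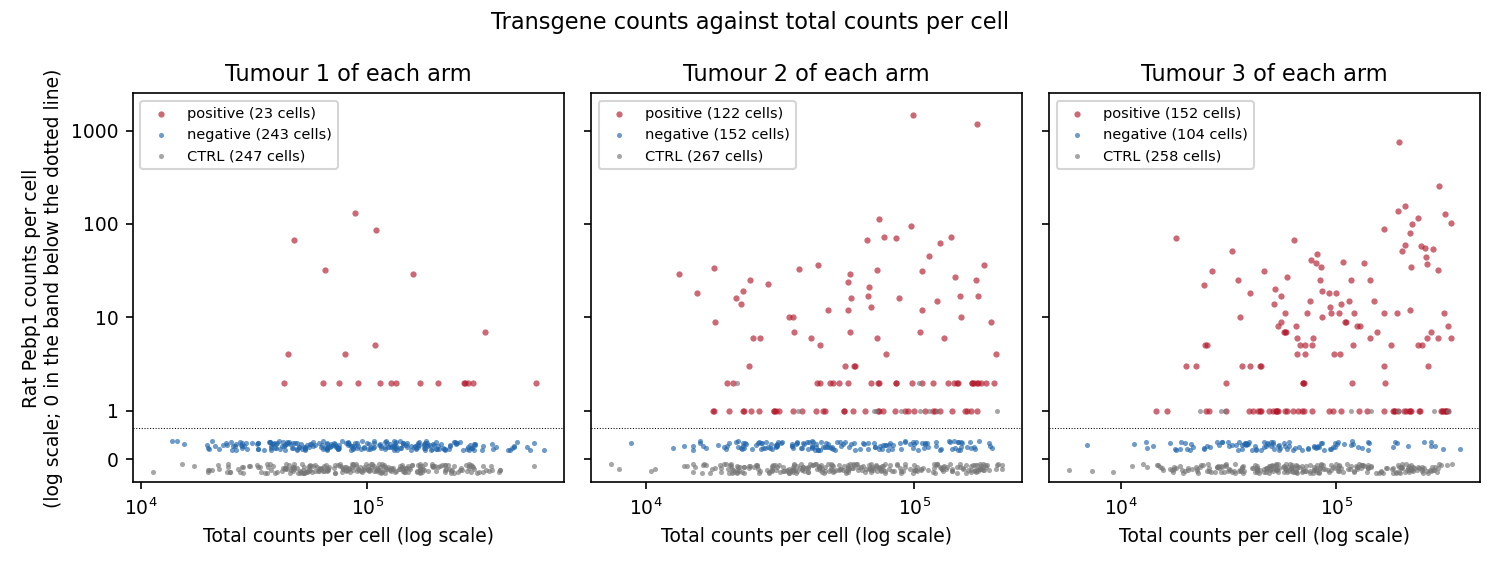
Rat Pebp1 counts (vertical, log scale, cells at 0 in the band below the dotted line) against total counts per cell (horizontal, log scale) for positive and negative cells of RKIP tumours 1 to 3 and for the cells of the CTRL tumour of the same number. Of the positive cells, 83 lie at 1 count and 4 at 250 or more, and no CTRL cell lies above 2.

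Positive cells had higher median total counts than negative cells of the same tumour. Depth here and below means these total counts, which are not numbers of reads. Median total counts were 114168 in positive and 87150 in negative cells of tumour 1, 70933.5 in positive and 47170 in negative cells of tumour 2, and 97049.5 in positive and 50865.5 in negative cells of tumour 3, ratios of 1.31, 1.504 and 1.91. The CTRL cells lay between the classes, at 95289, 55704 and 66420.5. Positive cells also had more detected genes, with medians of 3892, 4684 and 5403.5 in positive and 3248, 4240.5 and 4009 in negative cells of tumours 1, 2 and 3. When every cell with at least 20000 counts was thinned to 20000, which left out 39 RKIP cells, the medians were 2589, 3065.5 and 3419.5 genes in positive and 2270, 3174.5 and 3225 genes in negative cells. Positive cells thus had fewer genes than negative cells in tumour 2 once total counts were equal.

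The share of positive cells was higher among deeper cells in tumours 2 and 3. In 4 groups of cells of equal size, ordered from low to high total counts, it was 4.48%, 7.58%, 12.1% and 10.4% in tumour 1, 34.8%, 36.8%, 51.5% and 55.1% in tumour 2, and 32.8%, 60.9%, 59.4% and 84.4% in tumour 3. In tumour 1 the exact intervals of the shallowest and deepest groups overlap (0.933% to 12.5% and 4.30% to 20.3%). Cells with at least 3 counts made up 2.99%, 4.55%, 4.55% and 1.49% of the same groups in tumour 1, 17.4%, 16.2%, 27.9% and 23.2% in tumour 2, and 20.3%, 32.8%, 48.4% and 53.1% in tumour 3, so with this rule the share did not increase with depth in tumour 1. After thinning to 20000 counts the shares were 3.85%, 29.3% and 41.1%, and of the positive cells deep enough to thin, 10 of 23, 75 of 116 and 99 of 148 still had a count. The order of the tumours was the same as before thinning. A rule of at least 3 counts, which no CTRL cell meets, left 3.38%, 21.2% and 38.7% of cells. Negative cells that lack the transcript cannot be told apart from those in which it went uncounted.

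**Figure D2:**
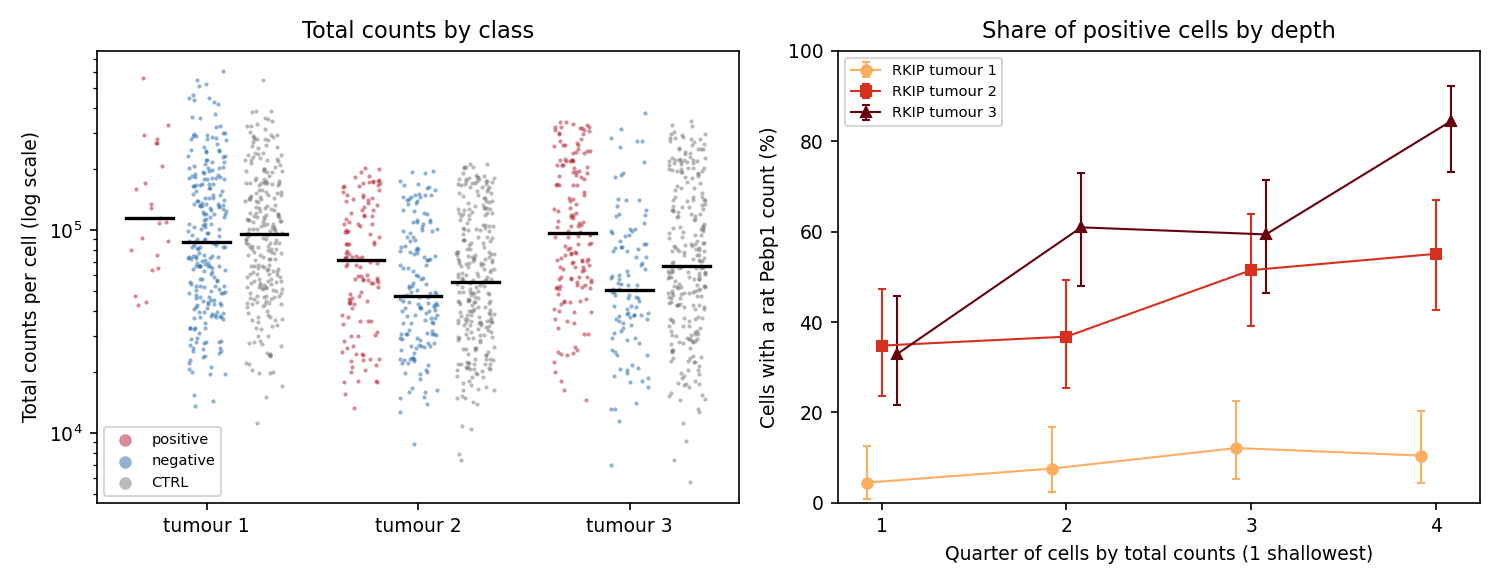
Left, total counts per cell (log scale) in positive, negative and CTRL cells of tumours 1 to 3, with points for cells and black lines for medians; the positive median is 1.31 to 1.91 times the negative one. Right, percent of RKIP cells with a rat Pebp1 count in each of 4 depth groups of equal size, with exact 95% intervals; the deepest group of tumour 3 reaches 84.4% and the shallowest 32.8%.

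The position of a cell on the capture chip was also related to a transgene count. The cell names place CTRL cells in chip columns 1 to 10 and RKIP cells in columns 11 to 20, with rows running across both. Of the 4 cells with at least 250 transgene counts, a level chosen after the counts were seen, 2 lie in tumour 2 (rows 18 and 23) and 2 in tumour 3 (both in row 3). In the 3 rows of these cells, 9 of 30 CTRL cells had a transgene count (30.0%, exact interval 14.7% to 49.4%), against 9 of 495 CTRL cells in the other rows of tumours 2 and 3 (1.82%, 0.835% to 3.42%). The cells of those rows were deeper as well, with median totals of 121688 counts among the CTRL cells of those rows and 58626 among those of other rows. Among RKIP cells, the high cells themselves left out, 14 of 25 in those rows and 256 of 501 in other rows were positive (56.0% and 51.1%). Without these rows the share of positive cells was 43.7% in RKIP tumour 2 and 58.7% in RKIP tumour 3, and tumour 1 had no such row. The part of chip rows in the CTRL counts was not tested.

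Shares also varied between the 10 chip columns of an RKIP tumour. They ran from 0% (0 of 27 cells, for which the limit of 3 counts gives an upper share of 11.1%) to 17.2% in tumour 1, from 17.2% (5 of 29) to 74.1% (20 of 27) in tumour 2, and from 40.7% to 80.8% in tumour 3. Column 16 was lowest in both tumour 1 and tumour 2. The highest and lowest columns of tumour 2 had median totals of 73285 and 55096 counts.

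Human PEBP1, the gene of the tumour cells' own RKIP, did not pass the test between the classes. In CPM of the scaled sums it was 350.7, 272.4 and 265.7 in positive cells and 257.6, 264.4 and 302.6 in negative cells of tumours 1, 2 and 3. The groups overlap, and the positive cells are higher in tumours 1 and 2 and lower in tumour 3. The log2 fold change of positive over negative cells was 0.10 (SE 0.18, edgeR adjusted p = 1.00), and it was 0.02 with cells thinned to 20000 counts and -0.07 without tumour 1. PEBP1 was counted in 95.7%, 95.1% and 96.1% of positive and in 85.2%, 94.7% and 93.3% of negative cells. Within positive cells the Spearman correlation of rat Pebp1 and human PEBP1 CPM was -0.27, -0.091 and -0.00030 over 23, 122 and 152 cells, values that share each cell's total count. In 7, 38 and 40 positive cells the rat transcript had more of the deposited counts than the human one. The values were rescaled by gene, so this does not show which transcript was more abundant. The sources used here do not say how reads that match both transcripts were assigned.

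No gene passed the test between positive and negative cells. Counts were summed per tumour and class and fitted with the tumour as a block, and 0 of 13107 genes had an edgeR adjusted p under 0.05 (0%), the lowest being 1.00. At an unadjusted p under 0.05 there were 311 genes (2.37%). DESeq2 called 9 genes (0.0687%), 7 higher and 2 lower, and limma on the mean log2 level over cells called 0, with 1629 at an unadjusted p under 0.05. Limma on log2(CPM + 1) of the sums, which does not take the values for raw counts, also called 0, with 509 at an unadjusted p under 0.05 and a lowest adjusted p of 0.94. In all 3 tumours 11.1% of genes were higher in positive cells and 14.2% were lower, and the median log2 fold change of all genes was -0.06. CTRL cells divided at the median total of their tumour, deeper against shallower, likewise gave 0 calls and 541 genes at an unadjusted p under 0.05 in a fit of their own.

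Among the proteins of the RAS to ERK cascade, on which RKIP acts, 0 of 14 measured genes passed. Their median log2 fold change was 0.10, with 1 gene higher and 2 lower in all 3 tumours, beside 11.1% and 14.2% of all genes. MAP2K1, which encodes MEK1, had 3.46, 12.2 and 17.7 CPM in positive and 13.8, 11.8 and 16.6 CPM in negative cells (-0.56, SE 0.72, edgeR adjusted p = 1.00). The classes overlap, and only tumour 1 has a lower value in positive cells.

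Genes that ERK activates, with the feedback inhibitors among them, did not separate the classes either. Of 28 measured members 0 passed, and the median log2 fold change was 0.03 beside -0.06 for all genes. In positive cells 6 were higher and 2 lower in all 3 tumours, where 11.1% of all genes were higher and 14.2% lower. The phosphatase gene DUSP6, the standard readout of ERK activity, had 536.6, 461.1 and 408.2 CPM in positive and 406.8, 483.1 and 476.7 CPM in negative cells (0.04, SE 0.17, edgeR adjusted p = 1.00). The classes overlap, as they do for EGR1, an immediate transcription factor, at 319.9, 489.4 and 377.8 CPM in positive and 327.4, 379.8 and 335.1 CPM in negative cells (0.17, SE 0.15). FOSL1, an AP-1 subunit that ERK stabilises, had 515.6, 220.2 and 132.5 CPM in positive and 211.6, 169.8 and 177.9 CPM in negative cells (0.41, SE 0.33). The gap was widest in tumour 1 with its 23 positive cells, and without that tumour the value was -0.03.

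The 6 output genes with higher values in all 3 tumours were IER3, EPHA4, ETV5, DUSP4, CCND1 and SPRY1. IER3, an immediate-early survival gene and the 1 member at an unadjusted edgeR p under 0.05, had 152.2, 111.1 and 122.4 CPM in positive and 91.9, 95.0 and 59.3 CPM in negative cells (log2 fold change 0.67, SE 0.26, edgeR adjusted p = 1.00). All 3 positive values lie above all 3 negative ones. The ephrin receptor gene EPHA4 had 0.97 (SE 0.47), the transcription factor gene ETV5 0.49 (SE 0.35) and the phosphatase gene DUSP4 0.30 (SE 0.23). CCND1, which encodes the G1 cyclin D1, had 359.4, 258.9 and 224.3 CPM in positive and 254.5, 228.9 and 209.3 CPM in negative cells (0.26, SE 0.17). It was at -0.19 with cells paired on total counts. Among the Sprouty feedback inhibitors, SPRY1 was at 0.23 (SE 0.15), SPRY2 at -0.56 (SE 0.41) and SPRY4 at -0.90 (SE 0.46), and SPRED1, a related inhibitor, at -0.32 (SE 0.38). SPRY2 and SPRED1 were the members at lower values in all 3 tumours.

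Of the genes tied to RKIP and BACH1 in metastasis, 0 of 15 measured passed, 3 were above 0 and the median was -0.21 on the log2 scale. Over all 13107 genes tested, 5910 were above 0 and the median was -0.06. BACH1 had 156.8, 124.4 and 111.0 CPM in positive and 152.7, 122.7 and 120.9 CPM in negative cells (-0.02, SE 0.21, edgeR adjusted p = 1.00). The classes overlap. HMGA2 had 48.1, 76.5 and 71.0 CPM in positive and 74.8, 74.4 and 83.9 CPM in negative cells (-0.28, SE 0.29), lower in tumours 1 and 3 and slightly higher in tumour 2. The chemokine receptor gene CXCR4 had 0, 5.49 and 5.69 CPM in positive and 6.96, 9.46 and 7.55 CPM in negative cells (-1.70, SE 1.34), was counted in 9.42% of RKIP cells, and was at -0.60 without tumour 1. HMGA1, a chromatin protein related to HMGA2, was at 0.26 (SE 0.16) and HBEGF, a ligand of the EGF receptor, at 0.28 (SE 0.28). The members lower in positive cells in all 3 tumours included SNAI2, a transcription factor of the mesenchymal state, with 0.576, 14.8 and 9.02 CPM in positive and 7.87, 26.2 and 24.9 CPM in negative cells (-1.79, SE 0.76). SNAI2 was counted in 15.8% of RKIP cells, and 1 cell held 100% of its counts in positive cells of tumour 1. ANGPTL4, a secreted regulator of lipoprotein lipase, had 77.8, 220.1 and 136.0 CPM in positive and 162.1, 220.6 and 227.6 CPM in negative cells (-0.60, SE 0.26), and was almost equal in tumour 2. MMP1, a collagenase that BACH1 activates, had 3.17, 30.4 and 15.6 CPM in positive and 255.6, 39.3 and 5.69 CPM in negative cells (-1.09, SE 1.51). A single cell held 84.8% of all MMP1 counts of the RKIP tumours, and without tumour 1 the value was 0.51.

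**Figure D3:**
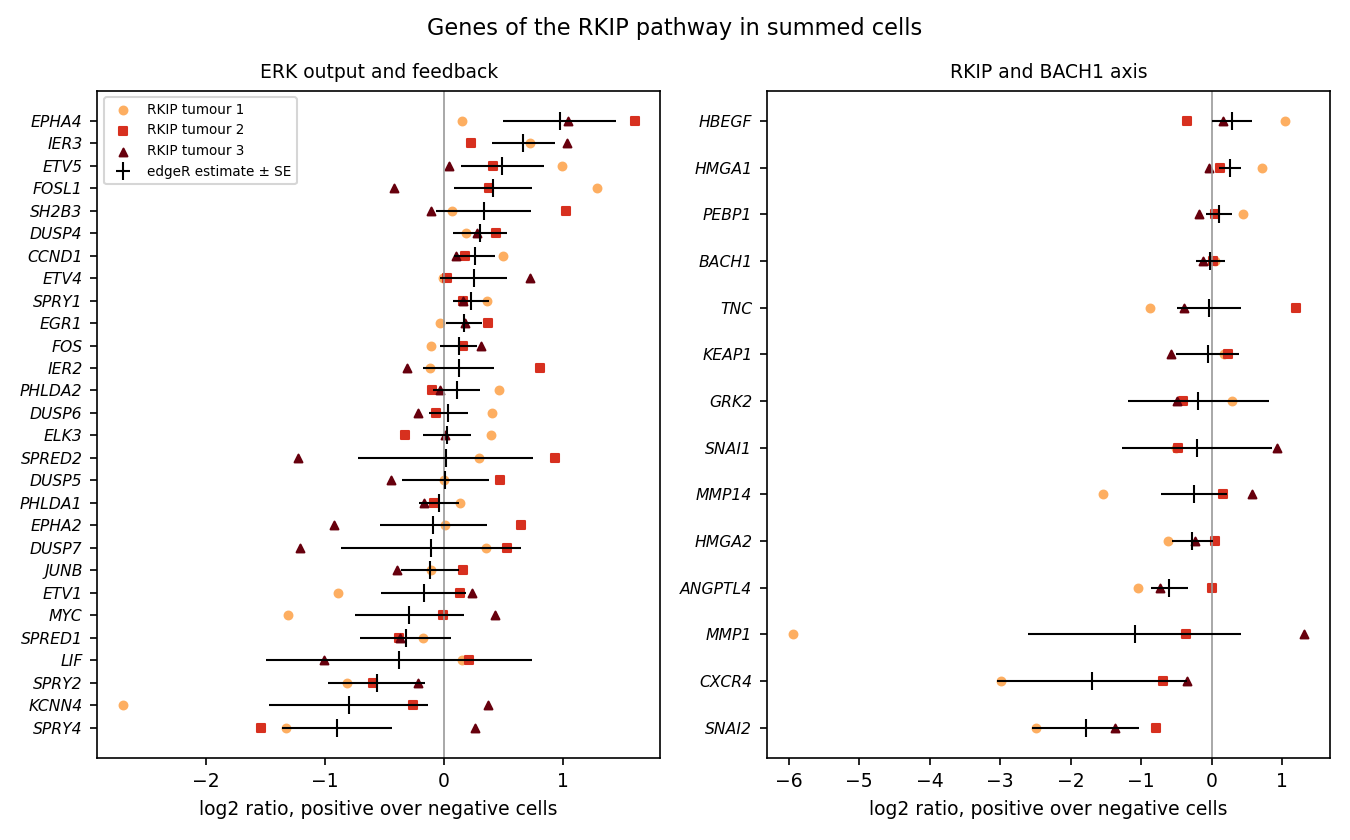
Log2 ratio of positive over negative cells (horizontal, from CPM + 1 of the summed cells) for the measured genes of ERK output (left) and of the RKIP and BACH1 axis (right); symbols are RKIP tumours 1 to 3 and black marks the edgeR log2 fold change with its SE. DUSP6 and BACH1 sit at 0.04 and -0.02, and the tumours fall on both sides of 0 for most genes.

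The genes with the smallest unadjusted p, with the same direction in all 3 tumours and a mean log2 CPM of at least 5, were named in each direction, 12 higher and 12 lower. None is called, and each has an edgeR adjusted p of 1.00. SGK1, a kinase induced by serum and glucocorticoids, had 561.1, 506.0 and 631.7 CPM in positive and 353.6, 385.5 and 390.1 CPM in negative cells (log2 fold change 0.58, SE 0.14). Every positive value lies above every negative one, and the difference was as large with cells paired on total counts (0.60). CTRL cells, scaled in a fit of all 9 sums, had 359.6 ± 60.8 CPM (SD, n = 3).

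SGK1 was also higher in the typical positive cell. Its median per cell was 324, 311 and 379 CPM in positive cells, 164, 258 and 180 CPM in negative cells and 152.99, 193.7 and 138.7 CPM in CTRL cells. The median of positive cells was thus the highest of the 3 classes in each tumour. In CTRL cells SGK1 differed by 0.22 on the log2 scale between deeper and shallower cells, so its level moved with depth in the same direction, and the part of depth in the result was not tested beyond the pairing.

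IFITM3, an interferon-induced membrane protein that blocks virus entry, had 3277, 3506 and 3860 CPM in positive and 2673, 2783 and 3168 CPM in negative cells (0.30, SE 0.074). Its values do not overlap, and the cell medians were 2680, 2959 and 3559 CPM in positive and 2151, 2694 and 2415 CPM in negative cells. With pairing on total counts it was at 0.21. SAP30BP, a partner of a histone deacetylase complex, had 377, 254.2 and 189.2 CPM in positive and 196.1, 180.0 and 109.2 CPM in negative cells (0.74, SE 0.19). TCEAL3, of a family related to elongation factor TFIIS, had 556.5, 171.5 and 248.8 CPM in positive and 266.7, 141.8 and 105.9 CPM in negative cells (0.86, SE 0.23). With pairing on total counts SAP30BP was at 0.33 and TCEAL3 at 0.89. With at least 10 transgene counts they were at 0.058 and 0.77. SGK1, IFITM3, SAP30BP and TCEAL3 were the 4 of these 12 genes whose median per cell was also higher in positive cells in all 3 tumours. The 12 higher and 12 lower genes were chosen from the same cells, so values that do not overlap and cell medians add no separate support. The share of all genes with such cell medians was not determined. Over cell means of log2(CPM + 1) the median difference of all genes was 0.18.

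For the other 8, a single cell held 31.0% to 100% of the counts of the positive cells of tumour 1. That share was 17.7% for IFITM3, 18.6% for SGK1, 22.0% for SAP30BP and 41.1% for TCEAL3, so the ranges overlap. SLC39A7, a zinc transporter of the secretory pathway, had 673.2, 309.4 and 262.9 CPM in positive and 214.6, 178.5 and 117.3 CPM in negative cells (1.20, SE 0.21, DESeq2 adjusted p = 0.016). Its median per cell was 10.2, 47.9 and 61.1 CPM in positive and 12.04, 36.5 and 13.7 CPM in negative cells. GTF3C1, a subunit of the RNA polymerase III factor TFIIIC (1.64, SE 0.29), was counted in 38.1% of RKIP cells, and SCAMP2, a membrane protein of secretory carriers (1.46, SE 0.29), in 45.6%. HIRIP3, a histone chaperone (1.36, SE 0.34), PGAP2, a remodelling factor of GPI anchors (1.62, SE 0.39), and PEMT, an enzyme of phosphatidylcholine synthesis (0.84, SE 0.20), followed. PGAP2 was counted in 13.1% of RKIP cells, and 1 cell held 100% of its counts in positive cells of tumour 1 and another 83.1% of those in tumour 2. UCN2, a peptide of the corticotropin-releasing family (1.82, SE 0.52), and GALNT5, which starts O-linked glycans (1.07, SE 0.31), were counted in 21.5% and 41.6% of RKIP cells.

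**Figure D4:**
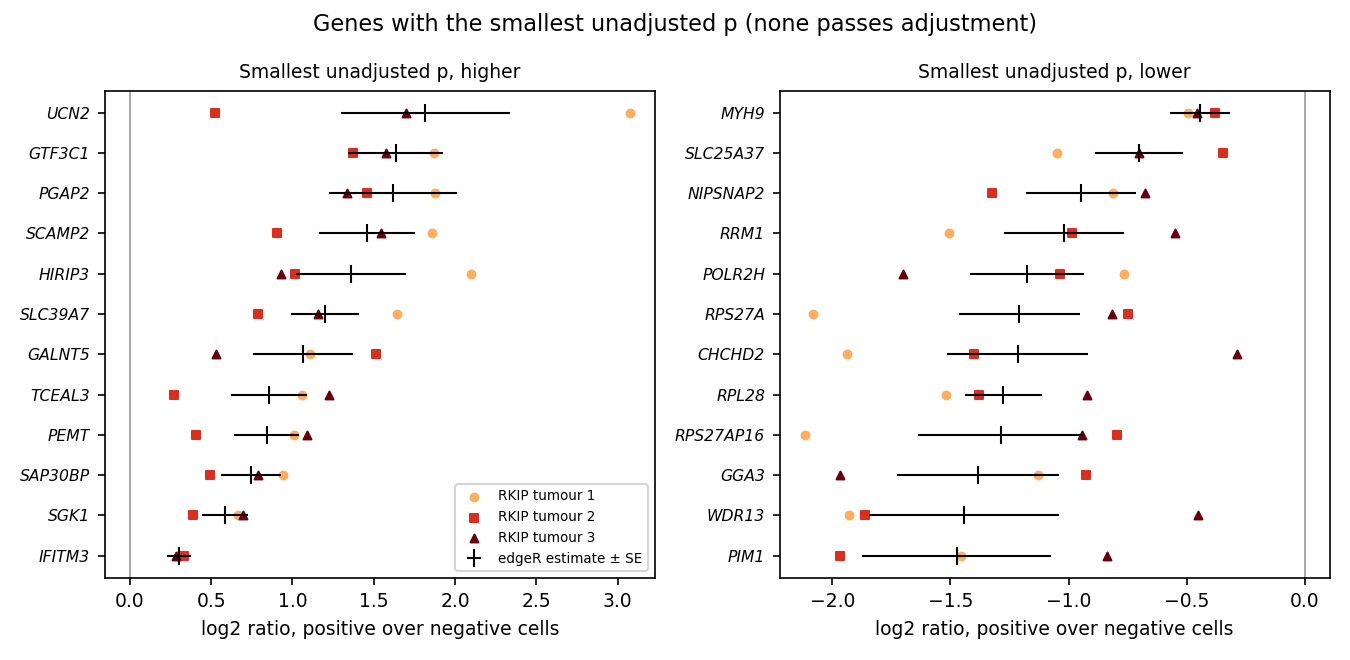
Log2 ratio of positive over negative cells (horizontal, from CPM + 1 of the summed cells) for the 12 genes named as higher (left) and the 12 named as lower (right); symbols are RKIP tumours 1 to 3 and black marks the edgeR log2 fold change with its SE. The estimates run from 0.30 for IFITM3 to 1.82 for UCN2 and from -0.44 for MYH9 to -1.47 for PIM1, and none passes adjustment.

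On the lower side, RPL28, a protein of the large ribosomal subunit, had 213.6, 350.4 and 336.9 CPM in positive and 614.7, 912.0 and 639.8 CPM in negative cells (log2 fold change -1.28, SE 0.16, edgeR adjusted p = 1.00, DESeq2 adjusted p = 0.0017). The classes do not overlap in the sums, and edgeR called the gene when cells were thinned to 20000 counts (-1.72, adjusted p = 0.0027). The medians per cell lay closer together, at 117, 140 and 151 CPM in positive, 99.1, 152 and 147 CPM in negative and 111, 127 and 129 CPM in CTRL cells. The sums turned on cells above 1000 CPM, of which there were 0 of 23, 2 of 122 and 5 of 152 among positive cells and 13 of 243, 9 of 152 and 6 of 104 among negative cells. These cells held 77.2%, 84.1% and 75.7% of the RPL28 counts of the negative class. CTRL cells had such cells too, 15, 13 and 12 of them with 76.7%, 77.3% and 72.9% of the counts.

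RPS27A, which encodes ubiquitin joined to a protein of the small ribosomal subunit, was likewise carried by few cells. It had 1729, 8276 and 3297 CPM in positive and 7322, 13906 and 5808 CPM in negative cells (-1.21, SE 0.26, DESeq2 adjusted p = 0.030). Medians per cell were 1528, 1703 and 1704 CPM in positive and 1518, 1573 and 1860 CPM in negative cells. The 5 highest cells held 53.6%, 73.2% and 69.5% of the counts of the negative class and 47.2%, 78.3% and 40.8% of those of the positive class. Its pseudogene RPS27AP16 (-1.29, SE 0.35) is a near copy that can take its reads, so the pair counts as 1 uncertain result. CHCHD2, a protein of the mitochondrial intermembrane space, had 426.8, 1233 and 494.9 CPM in positive and 1641, 3261 and 604.5 CPM in negative cells (-1.22, SE 0.30), with medians per cell of 405, 279 and 304 CPM in positive and 274, 292 and 311 CPM in negative cells. It was also at -3.26 between deeper and shallower CTRL cells, as POLR2H, a subunit shared by RNA polymerases, was at -2.92. POLR2H itself was at -1.18 (SE 0.24) between the classes and at -0.26 with cells paired on total counts.

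The remaining lower genes were NIPSNAP2, a mitochondrial protein (-0.94, SE 0.23), GGA3, a clathrin adaptor (-1.38, SE 0.34), RRM1, the large subunit of ribonucleotide reductase (-1.02, SE 0.25), PIM1, a serine and threonine kinase (-1.47, SE 0.40), and WDR13, a WD repeat protein (-1.44, SE 0.40). SLC25A37, the iron importer of mitochondria, had 233.4, 272.0 and 229.1 CPM in positive and 484.3, 346.0 and 373.1 CPM in negative cells (-0.70, SE 0.19). It was the 1 gene of the 12 whose median per cell was also lower in positive cells in all 3 tumours, at 81.4, 164 and 170 CPM against 151, 245 and 189 CPM in negative cells. MYH9, the heavy chain of non-muscle myosin, had 421.1, 491.4 and 414.0 CPM in the sums of positive and 593.0, 639.7 and 568.3 CPM in those of negative cells (-0.44, SE 0.13), but its medians per cell went the other way, at 307, 372 and 366 CPM in positive and 258, 338 and 309 CPM in negative cells. When each cell weighed the same, as the mean of log2(CPM + 1) over cells tested with limma, 9 of the 12 lower genes had a positive difference, RPL28 at 0.13 and RPS27A at 0.18, where the median of all genes was 0.18.

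**Figure D5:**
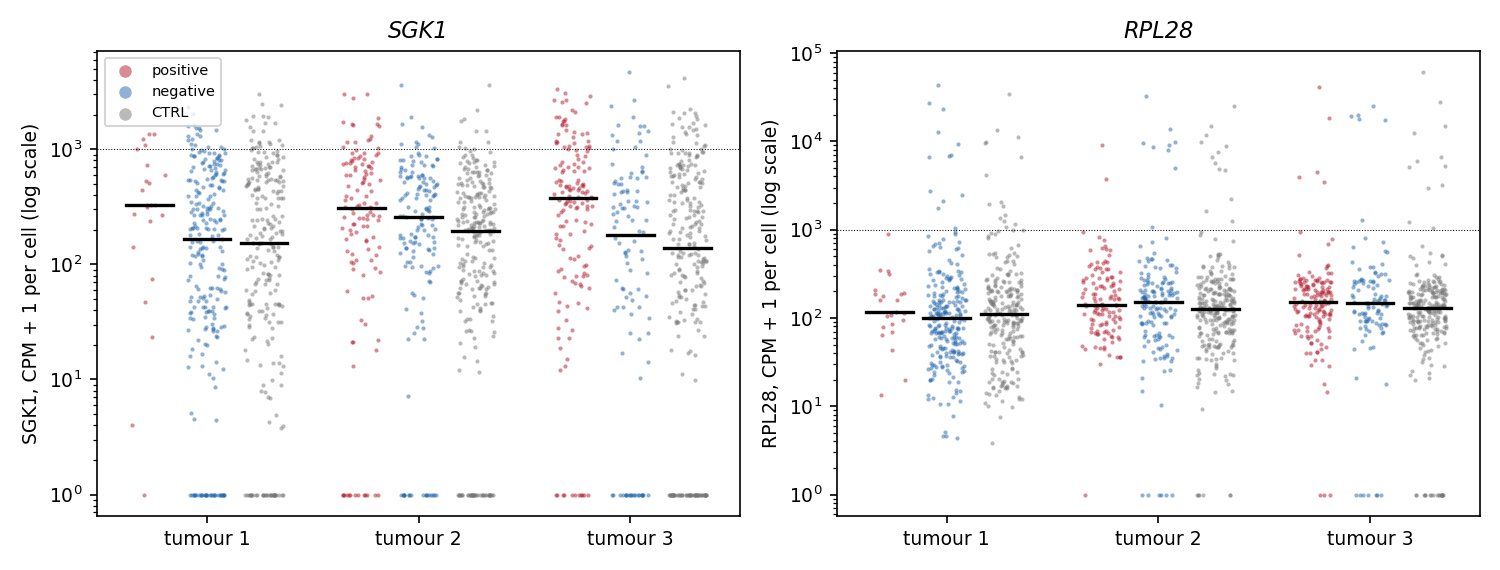
SGK1 (left) and RPL28 (right) per cell in CPM + 1 (log scale) for positive, negative and CTRL cells of tumours 1 to 3; points are cells, black lines medians and the dotted line marks 1000 CPM. The SGK1 median is highest in positive cells of each tumour, while the RPL28 medians lie within 99.1 to 152 CPM and the classes differ in the few cells above the line.

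Across 8 further gene groups the counts of called members were 0 throughout, and medians are given beside the -0.06 of all genes. The oxidative phosphorylation genes had a median of 0.10 over 34 members, of which 25 were above 0, and 13 were higher and 0 lower in positive cells in all 3 tumours. The ribosomal protein genes had 0.09 over 75 members, with 24 higher and 6 lower in all 3 tumours, RPL28 among the 6. The immediate-early stress genes had 0.17 over 25, with 9 higher and 1 lower. Of all 13107 genes tested, 5910 were above 0, and 11.1% were higher and 14.2% lower in all 3 tumours. No member of the groups was called. Between deeper and shallower CTRL cells the same groups had medians of 0.09, 0.01 and -0.18. Negative cells, divided at the median total of negative cells of their tumour, gave 0.18, 0.02 and -0.18. The part of depth in the medians of the classes was not tested.

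The hypoxia genes had a median of -0.30 over 24 members, with 0 higher and 5 lower in all 3 tumours. The mesenchymal genes had -0.29 over 14, with 0 higher and 6 lower, and the matrix protease genes -0.34 over 18, with 1 higher and 5 lower. Among all genes tested, 11.1% were higher and 14.2% lower in all 3 tumours. In CTRL cells the medians of these 3 groups between deeper and shallower cells were -0.07, -0.16 and -0.12. In negative cells divided in the same way they were -0.20, 0.01 and -0.03. The genes of the G2 and M phases had 0.15 over 55 members, at ratios of 0.59, 0.02 and -0.29 in tumours 1, 2 and 3, and 0.46 between deeper and shallower CTRL cells. The S phase genes had -0.20 over 42, at -0.30, -0.55 and 0.42 in the 3 tumours. The cell cycle groups thus pointed in different directions in different tumours. Between deeper and shallower negative cells the G2 and M phase genes had 0.47 and the S phase genes 0.40. The S phase genes had 0.11 between deeper and shallower CTRL cells. In 12 other groups, from cytokines and interferon-stimulated genes to glycolysis and cancer-testis genes, medians ran from -0.16 (antigen presentation) to 0.14 (core histones). Of their members, 10 of 208 had an unadjusted edgeR p under 0.05, where 311 of all 13107 genes did (2.37%).

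Set against vector-control tumours, neither class of RKIP cells differed by the test. In a fit of all 9 sums, 0 of 14519 genes were called between positive and CTRL cells (0%, 545 at an unadjusted p under 0.05, 31 by DESeq2, 0 by limma on the sums), and 0 of 14519 between negative and CTRL cells (0%, 351 at an unadjusted p under 0.05, 7 by DESeq2, 0 by limma on the sums). Both comparisons use the same CTRL cells. For SGK1 the log2 fold change was 0.67 (SE 0.14) in positive over CTRL and 0.10 (SE 0.14) in negative over CTRL cells. DUSP6 was at 0.015 (SE 0.15) in positive over CTRL and 0.00095 (SE 0.15) in negative over CTRL cells, and SLC39A7 at 1.02 in positive over CTRL and -0.18 in negative over CTRL cells. The ERK output genes had medians of -0.00048 in positive over CTRL and 0.0048 in negative over CTRL cells. The hypoxia genes had -0.25 in positive over CTRL and 0.01 in negative over CTRL cells, and the mesenchymal genes -0.39 in positive over CTRL and 0.07 in negative over CTRL cells. Over all genes tested the medians were -0.083 in positive over CTRL and -0.0089 in negative over CTRL cells. Median total counts were higher in positive and lower in negative cells than in CTRL cells of the same ending. The part of depth in these comparisons was not tested.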

How the data were processed

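Single-cell RNA sequencing of human BM1 xenograft tumours (3 RKIP, 3 CTRL) was used; bulk tumours of the series were not analysed here. The deposited values are whole numbers per gene and cell. They skip numbers in a way that differs by gene and experiment and is mostly shared by the arms of an ending. They are therefore treated as estimated counts, as deposited, that were rescaled and rounded beforehand by a step not given in the sources used here. No further rounding was needed. The design had assumed raw counts, and limma on log2(CPM + 1) of the sums was added after this was seen. The submitters' processing notes name Trim Galore, STAR and featureCounts, without versions, and the builds hg38 and hg19, without their roles. Strand setting and use of molecular identifiers are not given in the sources used here, so overlapping and antisense genes cannot be told apart and a count may not be a separate molecule. The table holds 15005 genes, and 390 names in which a hyphen was written as a dot were restored from GENCODE 29. A level in CPM is counts per 1000000 counts.

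Cells were assigned to arm and tumour by the start and ending of their names, and 1 cell with under 1000 detected genes was left out. No label ties an ending to a replicate title, so that RKIP and CTRL tumours with the same ending belong to 1 experiment is taken from the endings and from the shared gaps in the values. Of 288 chip positions used by RKIP cells, 231 occur in all 3 tumours, since the positions are those of the chip. No annotation of doublets was used and no caller was run, so doublets remain among the cells.

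Counts were summed per tumour and class, without the transgene row, and tested by quasi-likelihood in edgeR 4.0.16 under R 4.3.3 (filterByExpr, TMM scaling, robust), with the tumour as a block because both classes come from the same tumour. CTRL comparisons used a fit of 9 sums with the ending as a block. Tests were two-sided with Benjamini-Hochberg adjustment over all genes tested and a threshold of 0.05 on the adjusted p. The scripts were tested on simulated data. DESeq2 1.42.0 and limma 3.58.1, with a pseudocount of 1 on the CPM, gave alternatives, as did thinning to 20000 counts (seed 1), pairing of cells on total counts within a factor of 1.1 (23, 114 and 81 pairs), other rules for a positive cell, and leaving out each tumour. With the block, the p-values between classes measure how the difference within a tumour varies over the 3 tumours. Those against CTRL measure how the difference within an ending varies over the 3 endings.

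The classes, the 29 gene lists and the tests were chosen with earlier results of these data known. Named genes are those that pass the test or, failing that, the 12 of the smallest unadjusted p in each direction whose sign is the same in all 3 tumours and whose mean log2 CPM is 5 or more, and members of the 3 lists of the RKIP pathway. Some members of the cascade list are not reported here.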

Additional observations from a re-analysis of the deposited data

How the results depend on the processing

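The count of 0 genes between positive and negative cells became 9 with DESeq2, 1 (RPL28) with thinned cells and 0 to 1 without single tumours (RPS27A without tumour 1, CHCHD2 without tumour 3). It was 0 under the other alternatives, with no replicate block and with limma on log2(CPM + 1) of the sums too. DESeq2 gave 31 genes for positive and 7 for negative cells against CTRL, where the other alternatives gave 0. The share of positive cells moved to 3.85%, 29.3% and 41.1% after thinning and to 3.38%, 21.2% and 38.7% with at least 3 counts. The cause of the moves below was not tested.

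The median of all genes was -0.06, and it was 0.18 over cell means of log2(CPM + 1) and -0.33 with at least 10 transgene counts. Over cell means, list medians were 0.30 for the RAS to ERK cascade, 0.43 for ERK output, 0.16 for the RKIP and BACH1 axis, 0.12 for hypoxia, 0.43 for immediate-early stress, 0.49 for oxidative phosphorylation, 0.22 for ribosomal proteins, 0.042 for mesenchymal genes and 0.20 for matrix proteases. With at least 10 counts they were -0.19 for the cascade, -0.55 for hypoxia, 0.42 for immediate-early stress and -0.036 for mesenchymal genes. With classes drawn after thinning they were 0.14 for ERK output, -0.17 for hypoxia, 0.27 for immediate-early stress, -0.028 for oxidative phosphorylation and -0.045 for mesenchymal genes. Pairing on totals gave 0.27 for immediate-early stress and 0.014 for ribosomal proteins, and no replicate block gave -0.040 for mesenchymal genes. Without single tumours, medians ran from -0.028 to 0.21 for ERK output, -0.33 to -0.17 for hypoxia, 0.22 to 0.27 for immediate-early stress, -0.46 to -0.060 for mesenchymal genes and 0.070 to 0.16 for oxidative phosphorylation.

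Of the uncalled genes named, these changed sign. Over cell means RPL28 was at 0.13, POLR2H 0.30, RPS27A 0.18, CHCHD2 0.10, NIPSNAP2 0.28, GGA3 0.21, PIM1 0.15, RPS27AP16 0.35, MYH9 0.11, MAP2K1 0.15, SPRY4 0.20, SPRY2 0.087, SPRED1 0.20, BACH1 0.79, HMGA2 0.033, MMP1 0.12 and ANGPTL4 0.10. With classes drawn after thinning GTF3C1 was at -0.017, PEMT -0.11, UCN2 -0.69, GALNT5 -0.45, GGA3 0.34, PEBP1 -0.28, FOSL1 -0.040, CCND1 -0.27 and DUSP4 -0.15. With at least 10 counts UCN2 was at -0.18, GALNT5 -0.15 and CCND1 -0.89, and with at least 2 counts SPRY1 was at -0.0051. Thinning gave DUSP4 -0.053, pairing CCND1 -0.19, DESeq2 BACH1 0.0080 and totals without TMM DUSP6 -0.0073. Without single tumours the ranges were -0.073 to 0.24 for PEBP1, -0.94 to 0.073 for MAP2K1, -0.15 to 0.16 for DUSP6, -0.025 to 0.83 for FOSL1, -3.11 to 0.51 for MMP1, -0.094 to 0.60 for HBEGF and -0.052 to 0.027 for BACH1. The 23 positive cells of tumour 1 and the unknown rescaling of the values limit the precision.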
